A study of Mus musculus with 3 samples.

Results

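The genes of the proteasome were examined in 2 peak lists from chromatin immunoprecipitation with sequencing (ChIP-seq) of mouse beige adipocytes, 1 for the forkhead transcription factor Foxp4 and 1 for H3K27ac, the acetylation of histone H3 that marks active promoters and enhancers. Members were all peaks whose nearest gene, in the annotation deposited with the lists, has a symbol of the Psma, Psmb, Psmc, Psmd, Psme, Psmf or Psmg series. They numbered 73 of 34501 peaks, 28 of 16937 in the Foxp4 list and 45 of 17564 in the H3K27ac list. The peaks fell to 39 genes, out of 50 protein-coding genes with such a symbol in the RefSeq annotation of the same assembly, and the other 11 genes had no peak in either list. Psmc3ip carries a matching symbol but encodes a factor of meiotic recombination, not a proteasome subunit, and it stays in the 50 genes and in the counts taken from them. Psme3ip1 stands in the lists under an older symbol and was not a member.

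The cells of all libraries came from C57BL/6 mice, whose stromal-vascular fraction of inguinal white fat was cultured and turned into adipocytes, with no genotype or treatment compared between them. The induction medium, given for 48 h, held T3 (50 nM), troglitazone (5 µM), dexamethasone (1 µM), insulin (5 µg/ml) and isobutylmethylxanthine (0.5 mM), and T3, troglitazone and insulin were kept for 6 more days. There was 1 Foxp4, 1 H3K27ac and 1 input library, and the input was not analysed here. The extraction text of every library, the H3K27ac one included, names an antibody against Foxp4 and no other, so that the H3K27ac list is what its label says could not be checked from the labels. With 1 library per target no replicate error can be given, and peak lists give no depth. Shares of genes are given with a 95% interval by the exact Clopper-Pearson method, which takes in counting error alone. Each peak carries a score, the authors' own value and a whole number of at least 20 whose scaling is not stated, so scores are compared within a list only. A gene absent from a list had no called peak there, which does not show that the mark or factor was absent. Of 8 adipocyte markers 7 had an H3K27ac peak at any distance, Adipoq being the one without. At the promoter, within 1000 bp of the start, 6 had one. Over all protein-coding genes the shares were 37.5% at any distance and 26.0% at the promoter. Of 10 beige markers 5 had an H3K27ac peak, 1 of them at the promoter. Ucp1, Dio2, Prdm16 and Tbx1 had no peak in either list, so the name beige rests on the labels here. All 4 progenitor markers (Pdgfra, Dlk1, Cd34 and Ly6a) had an H3K27ac peak, 2 of them at the promoter. Macrophage markers had an H3K27ac peak in 2 of 4 cases (Cd68 and Csf1r), endothelial markers in 3 of 4 (Pecam1, Cdh5 and Kdr) and muscle markers in 0 of 4. At the promoter, 1 macrophage marker, 0 endothelial and 0 muscle markers had one. The part of undifferentiated or other cells in the results was not tested.

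The proteasome degrades proteins tagged with ubiquitin. Its core particle, the 20S proteasome, is a barrel of alpha rings (Psma genes) that gate the entry and beta rings (Psmb genes) that hold the proteolytic sites, and the 19S regulatory particle caps it with ATPases that unfold substrates (Psmc genes) and non-ATPase subunits that bind and remove ubiquitin (most Psmd genes). Core and cap together form the 26S proteasome. In mouse brown fat, proteasome activity is known to be needed for thermogenesis and to depend on the transcription factor Nfe2l1, which acts through antioxidant response elements in proteasome promoters.

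Foxp4 peaks lay at the promoters of 8 of the 50 genes, counting a peak as a promoter peak where its centre was within 1000 bp of the transcription start. Distances are those of the deposited annotation, negative or upstream before the start. This share was 16.0% (interval 7.17 to 29.1%), beside 6.77% of all 21031 protein-coding genes. The genes were Psma6 and the beta subunit genes Psmb3 and Psmb7 of the core particle, the 19S non-ATPase genes Psmd1, Psmd3 and Psmd6, the assembly factor gene Psmd5 and the activator gene Psme4. A Foxp4 peak at any distance was assigned to 19 genes (38.0%, interval 24.7 to 52.8%), beside 36.6% of all genes. The share with any Foxp4 peak was therefore near the background.

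Promoter sequences are shown for those of the 8 genes that the RefSeq promoter table holds. The Foxp4 promoter peak of the gene reaches into each of these sequences except that of Psme4, of which 0 bases lie in it. The sequences run from 250 bases before the start to 50 bases from it, 5′ to 3′ on the strand of the gene, in build GRCm38.p6. The positions are chr12:55398575-55398874 (plus strand) for Psma6, chr11:97703184-97703483 (plus) for Psmb3, chr1:86064369-86064668 (plus) for Psmd1, chr2:34870913-34871212 (minus) for Psmd5, chr14:14120896-14121195 (minus) for Psmd6 and chr11:30771525-30771824 (plus) for Psme4. Capitals mark matches to the motifs described further on.
Psma6: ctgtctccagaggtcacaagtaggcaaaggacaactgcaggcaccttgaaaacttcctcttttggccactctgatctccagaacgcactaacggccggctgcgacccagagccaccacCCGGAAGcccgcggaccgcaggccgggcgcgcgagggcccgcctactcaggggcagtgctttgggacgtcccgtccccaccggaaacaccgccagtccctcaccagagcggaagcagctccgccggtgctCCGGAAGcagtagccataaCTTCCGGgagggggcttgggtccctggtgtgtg
Psmb3: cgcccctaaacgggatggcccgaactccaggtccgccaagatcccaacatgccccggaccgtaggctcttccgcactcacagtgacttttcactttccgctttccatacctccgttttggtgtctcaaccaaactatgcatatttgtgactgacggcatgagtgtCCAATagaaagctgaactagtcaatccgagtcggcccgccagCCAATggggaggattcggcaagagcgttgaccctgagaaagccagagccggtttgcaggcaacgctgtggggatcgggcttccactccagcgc
Psmd1: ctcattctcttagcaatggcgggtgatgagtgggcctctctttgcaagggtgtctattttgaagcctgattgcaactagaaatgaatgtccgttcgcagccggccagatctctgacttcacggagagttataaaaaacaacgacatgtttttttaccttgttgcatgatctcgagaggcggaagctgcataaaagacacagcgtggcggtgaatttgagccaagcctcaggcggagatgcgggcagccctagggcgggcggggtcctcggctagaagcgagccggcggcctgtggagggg
Psmd5: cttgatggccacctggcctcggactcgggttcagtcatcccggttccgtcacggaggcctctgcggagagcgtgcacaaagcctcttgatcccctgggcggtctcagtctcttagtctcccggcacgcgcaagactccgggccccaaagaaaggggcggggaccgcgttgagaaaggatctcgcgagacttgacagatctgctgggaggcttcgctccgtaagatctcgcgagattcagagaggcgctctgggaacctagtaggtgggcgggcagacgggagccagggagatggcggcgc
Psmd6: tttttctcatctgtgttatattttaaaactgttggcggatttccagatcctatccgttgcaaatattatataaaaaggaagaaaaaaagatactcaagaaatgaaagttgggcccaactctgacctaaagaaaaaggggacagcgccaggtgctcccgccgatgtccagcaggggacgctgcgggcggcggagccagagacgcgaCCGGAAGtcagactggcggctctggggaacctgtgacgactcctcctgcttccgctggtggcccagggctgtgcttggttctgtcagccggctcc
Psme4: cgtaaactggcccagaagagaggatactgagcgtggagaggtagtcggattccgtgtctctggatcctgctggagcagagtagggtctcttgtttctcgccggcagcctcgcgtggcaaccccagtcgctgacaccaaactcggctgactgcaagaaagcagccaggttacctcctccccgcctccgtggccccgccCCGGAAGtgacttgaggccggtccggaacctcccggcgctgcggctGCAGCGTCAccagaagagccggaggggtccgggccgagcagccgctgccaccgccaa

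The Foxp4 peak of Psma6, encoding an alpha ring subunit, had a score of 40 and lay across the start, from -190 to 97 bp (chr12:55398635-55398922). All of its 288 bp lay inside an H3K27ac peak of score 48 that reached from -396 to 839 bp. The printed promoter lies in the Foxp4 peak for 240 of its 300 bases. It holds 3 copies of the ETS box, at -132, -2 and 17 bp, all of them inside the peak.

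At Psmb3, a beta ring subunit gene, the Foxp4 peak had a score of 21 and ran from -381 to 133 bp (chr11:97703053-97703567), so that all 300 printed bases lie in it. It shared 143 bp with the H3K27ac peak, whose score was 72 and which began at -9 bp. The promoter holds 2 CCAAT boxes, at -85 and -43 bp, which lie in the Foxp4 peak and outside the acetylated one.

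Psmd1, encoding a large scaffold subunit of the 19S particle, had a Foxp4 peak of score 35 from -265 to 53 bp (chr1:86064354-86064672). Its 300 printed bases all lie in this peak and match none of the motifs searched. The H3K27ac peak of the gene, with a score of 33, began at -151 bp and shared 205 bp with the Foxp4 peak.

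Psmd6, another 19S non-ATPase gene, had a broader Foxp4 peak of 544 bp with a score of 27, centred in intron 1 (chr14:14120362-14120905). In the deposited annotation it began at -1 bp, and from the RefSeq start of the printed promoter it began at 40 bp, so only 10 printed bases lie in it. It covered the whole H3K27ac peak of the gene, which was 353 bp wide with a score of 55. The centres of both peaks were 60 bp apart.

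At the remaining genes with both marks, the Foxp4 and H3K27ac peaks did not touch. Psme4, which encodes the activator PA200, had the highest-scoring Foxp4 promoter peak of the family, with a score of 47 in intron 1 from 749 to 1108 bp (chr11:30772524-30772883). In the detailed deposited annotation this peak lies in a simple repeat, (TG)n. Its score lay at percentile 90.1 of the Foxp4 promoter peaks. The H3K27ac peak of Psme4, with a score of 50, ended 32 bp before the Foxp4 peak began. Psmb7, the beta subunit gene for trypsin-like activity, had a Foxp4 peak of score 34 centred 697 bp upstream of its start (chr2:38644308-38644899), 452 bp away from an H3K27ac peak of score 51 in intron 1. Psmd3 had a Foxp4 peak of score 27 centred 800 bp upstream (chr11:98681607-98681901) and an H3K27ac peak of score 74 centred 448 bp downstream, with 745 bp between them.

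Psmd5, a chaperone of 19S assembly, had a Foxp4 promoter peak without any H3K27ac peak. The Foxp4 peak had a score of 33 and covered the start, with its centre in exon 1, from -61 to 386 bp (chr2:34870576-34871023). The nearest H3K27ac peak was 68.2 kb from the start and was assigned to Rabepk.

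**Figure D1:**
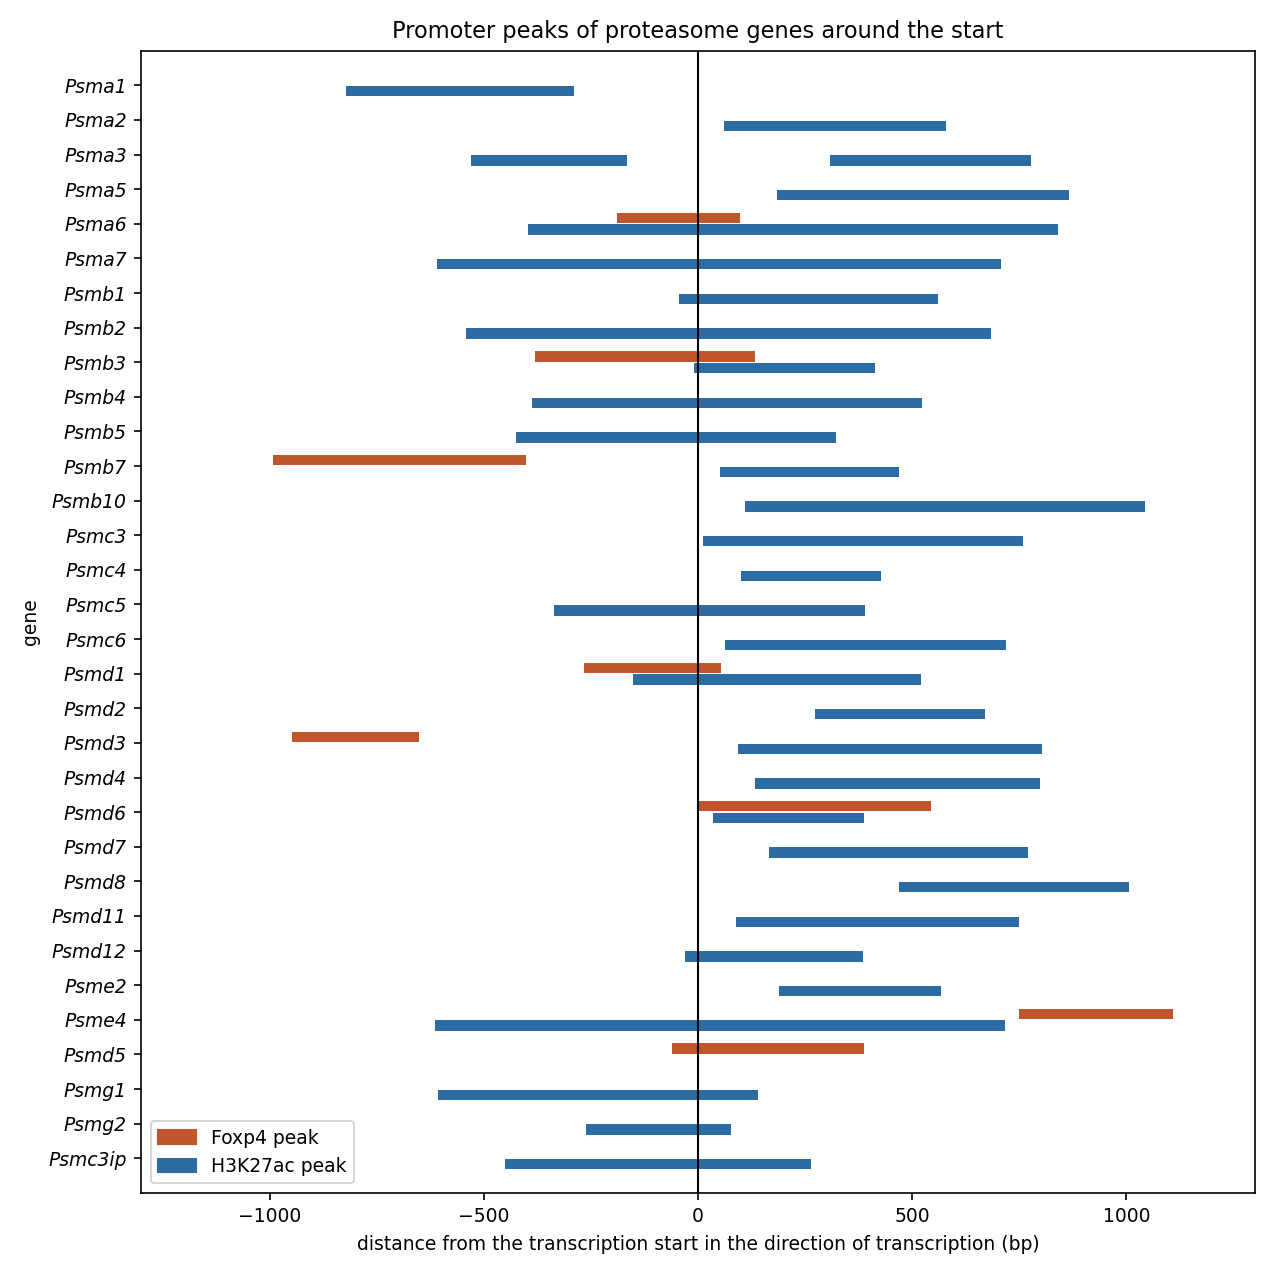
Promoter peaks of the 32 member genes with a promoter peak in either list, Psmc3ip included, drawn from edge to edge as distance in bp from the deposited transcription start, with genes in rows, Foxp4 peaks in orange and H3K27ac peaks in blue. At Psma6, Psmb3, Psmd1 and Psmd6 the bars overlap, while at Psmb7, Psmd3 and Psme4 they are apart by 452, 745 and 32 bp.

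In all, 4 of the 8 Foxp4 promoter peaks overlapped an H3K27ac peak by at least 1 bp (50.0%), beside 42.3% of all 1605 Foxp4 promoter peaks. Their scores ranged from 21 to 47 with a median of 33.5, beside a median of 32 for all genes with such a peak. Foxp4 scores of 21, 27, 34, 41, 49 and 57 recur in the list, each held by at least 100 peaks and more than 3 times as many as the next value on either side, and together they hold 73.1% of its peaks. Psmb3, Psmb7, Psmd3 and Psmd6 had their promoter peak at such a score, and without these peaks 4 genes with a Foxp4 promoter peak were left (8.0%, beside 3.87% of all genes). The part of these scores in the result was not tested.

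Of the 28 member Foxp4 peaks, 28.6% lay in the promoter window (interval 13.2 to 48.7%), beside 9.48% of all Foxp4 peaks. The other 20 lay outside it, at 14 genes, and 0 of them overlapped H3K27ac (interval 0 to 16.8%), beside 4.64% of all such Foxp4 peaks. At Psmg4, an assembly chaperone gene of the alpha ring, the closest one lay just past the window, with a score of 40 at 1310 bp downstream in intron 1 (chr13:34164119-34164429). Further Psmg4 peaks of scores 20 and 34 lay in an exon and an intron of Slc22a23, 20.2 and 68.5 kb from the Psmg4 start. Psme4 had 2 more Foxp4 peaks, both of score 24, at 6624 bp downstream in intron 1 and at 18046 bp upstream. Within their own genes lay the peak of Psmd13 (score 21, intron 6, chr7:140887513-140887840), that of the 19S assembly chaperone gene Psmd9 (score 27, exon 5, chr5:123245960-123246524) and that of Psmf1, which encodes the proteasome inhibitor PI31 (score 21, intron 2, chr2:151734301-151734592). The Psmd13 peak lies in a SINE repeat (B2_Mm1a) in the detailed deposited annotation. The peak of Psmg3, another chaperone gene of the alpha ring, lay at the end of its own transcript (score 27, chr5:139822420-139822806).

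Other distal Foxp4 peaks lay in or at the end of a neighbouring gene. The Psmb4 peak of score 21 lay in the last exon of Pogz (chr3:94882550-94882838), 4264 bp from the Psmb4 start. A Psmc1 peak of score 34 lay at the end of Kcnk13 (chr12:100063026-100063575), 49.0 kb away, and a Psma1 peak of score 34 lay in intron 1 of the RNA gene 4933406I18Rik (chr7:114321779-114322075), 45.8 kb away.

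The remaining distal Foxp4 peaks were intergenic. Upstream of the start lay the other Psma1 peak (score 31, chr7:114313389-114313890), the other Psmc1 peak (score 21, chr12:100101044-100101496), the Psmb7 peak (score 27, chr2:38676409-38676734) and the Psmd11 peak (score 34, chr11:80407353-80407675). Downstream lay the distal Psma6 peaks (score 27 each, chr12:55427068-55427398 and chr12:55440433-55440733), the Psmd12 peak (score 34, chr11:107501079-107501554) and the Psmg1 peak (score 28, chr16:95964808-95965225). These were 11.1 to 41.8 kb from the start, and their assignment to a proteasome gene rests on the nearest start alone.

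H3K27ac peaks marked the promoters of 31 of the 50 genes (62.0%, interval 47.2 to 75.3%), beside 26.0% of all protein-coding genes. Of the 31 members for constitutive 26S subunits 25 had an H3K27ac promoter peak (80.6%, interval 62.5 to 92.5%), and of the 19 other members, Psmc3ip among them, 6 had one (31.6%, interval 12.6 to 56.6%). Subunit genes without a symbol of the series are not among the 31. No test of this difference was made, since the grouping was chosen with results of these data known. Among the constitutive genes 3 had no peak in either list, and among the others 8. The share of all protein-coding genes without a peak in either list is not given here. These counts, and the 11 of all members, therefore have no background beside them.

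In the core particle, 6 of 7 alpha ring genes were marked (Psma1, Psma2, Psma3, Psma5, Psma6 and Psma7) and 6 of 7 beta ring genes (Psmb1, Psmb2, Psmb3, Psmb4, Psmb5 and Psmb7). Psma4 and Psmb6 were the exceptions and had no peak in either list. Their nearest H3K27ac peaks were 148 and 15.4 kb from the start and were assigned to Crabp1 and Pld2. Psmb5, the subunit with chymotrypsin-like activity, had a peak of score 82 that spanned its start (chr14:54617673-54618419). Psma3 was the one gene with 2 H3K27ac promoter peaks, one of score 82 centred 542 bp downstream (chr12:70974932-70975399) and one of score 39 centred 348 bp upstream. Psmb3 had a score of 72 and Psma2 one of 66. The scores of the other marked core genes were 54 at Psma7, 51 at Psmb7, 48 at Psma6, 46 at Psmb1, 39 at Psmb4, 37 at Psma5 and 34 at Psmb2. The Psma2 peak (chr13:14613302-14613819) carries the promoter class of Mrpl32, a mitochondrial ribosomal protein gene whose start lies 205 bp away on the opposite strand, and the list does not tell which gene it belongs to. Psma1 had a low promoter score of 33 (chr7:114276407-114276938), but the peak 16.0 kb upstream of its start had a score of 79 and was 1808 bp wide, more than any promoter peak of the family.

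Of the 5 genes for tissue-specific and immune subunits of the core 1 was marked (20.0%, interval 0.505 to 71.6%), beside 26.0% of all genes, a share near the background. The immunoproteasome subunit gene Psmb10 had an H3K27ac peak of score 42 centred 576 bp downstream, in intron 1. Psmb8 and Psmb9, which encode the other subunits that replace the constitutive proteolytic ones in immune cells, had no peak in either list, and neither had the thymus subunit gene Psmb11 or the testis subunit gene Psma8. The nearest H3K27ac peak to Psmb8 (6.51 kb) and to Psmb9 (17.4 kb) was the promoter peak of Tap2, the neighbouring peptide transporter gene, and the nearest one to Psmb11 (6.89 kb) was that of Psmb5.

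In the 19S particle, 4 of 6 ATPase genes had an H3K27ac promoter peak, namely Psmc3 (score 65), Psmc4 (39), Psmc5 (68, chr11:106255849-106256575) and Psmc6 (58). The other ATPase genes, Psmc1 and Psmc2, had high-scoring H3K27ac peaks that fell outside the window by the deposited distance. At Psmc1 the peak had a score of 82 (chr12:100110212-100110901) and lay 1775 bp upstream of the start in the deposited annotation, but its centre was 354 bp from the RefSeq start. At Psmc2 the peak had a score of 95 (chr5:21786444-21787273) and lay 1575 bp downstream of the deposited start, but it covered a second RefSeq start. The highest promoter score of the family was 96.

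Of the 11 members for non-ATPase subunits of the 19S particle 9 were marked. Psmd11 had the highest H3K27ac promoter score of all members, 96 in intron 1 (chr11:80428704-80429364), at percentile 89.9 of the H3K27ac promoter peaks. Psmd3 followed with 74, Psmd2, which encodes a scaffold subunit, had 61 and Psmd6 had 55. Psmd8 and Psmd12 had 48 each, and Psmd7 had 40. Psmd1 and the ubiquitin receptor gene Psmd4 (chr3:95041816-95042480) had 33 each, in the lower part of the list at percentile 15.2. Psmd14, encoding the subunit that removes ubiquitin chains, had no peak in either list, and the nearest H3K27ac peak was 54.4 kb away. Psmd13 had none by the deposited gene names, but an H3K27ac peak of score 51 (chr7:140881695-140882753) spanned its start and was assigned to Sirt3, which starts 85 bp away on the opposite strand.

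By position, counting any H3K27ac peak that reached within 1000 bp of a RefSeq start whatever gene it was assigned to, Psmc1, Psmc2 and Psmd13 were added. For genes outside the RefSeq promoter table the start was worked out from the deposited distances of their peaks, and those with no peak, Psma8 among them, had no start and count as unmarked. The count became 28 of 31 constitutive genes (90.3%, interval 74.2 to 98.0%) and 34 of 50 members (68.0%), beside 29.4% of all genes. Psma4, Psmb6 and Psmd14 remained without a mark.

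Of the activator and inhibitor genes 2 of 6 were marked (33.3%, interval 4.33 to 77.7%), near the 26.0% of all genes. Psme4 had a score of 50 and Psme2, the beta subunit of the interferon-inducible activator PA28, had the lowest promoter score of the family, 29 (chr14:55590455-55590833). Psme1, the alpha subunit of PA28, Psme3, the nuclear PA28 gamma, and Psme2b had no peak in either list, and Psmf1 had its Foxp4 peak only. The nearest H3K27ac peak was 12.0 kb from the start of Psme1, 8.62 kb from that of Psme3, 74.0 kb from that of Psme2b and 166 kb from that of Psmf1. Of the assembly factor genes 2 of 7 were marked (28.6%, interval 3.67 to 71.0%), again near the 26.0% of all genes, namely the chaperone genes Psmg1 (score 46) and Psmg2 (score 52). Psmd9 had an H3K27ac peak of score 39 in intron 3, at 11863 bp from the start, Psmd10, which encodes gankyrin, had no peak in either list, and Psmd5, Psmg3 and Psmg4 had Foxp4 peaks only. The nearest H3K27ac peak was 291 kb from the start of Psmd10, 34.4 kb from that of Psmg3 and 49.9 kb from that of Psmg4. The promoter of Psmc3ip had an H3K27ac score of 83 (chr11:101095172-101095886).

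**Figure D2:**
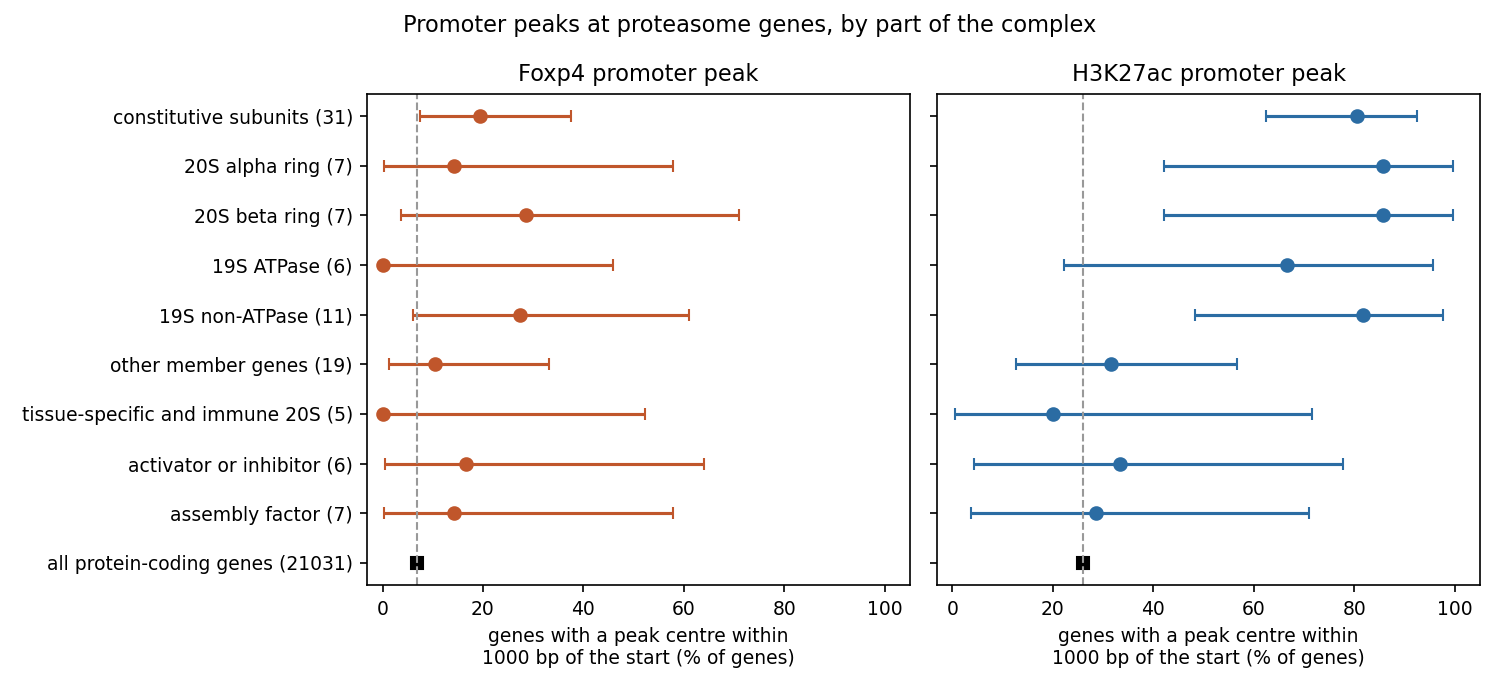
Share of genes with a Foxp4 (left) or H3K27ac (right) promoter peak in each part of the proteasome, in % of genes, with the number of genes in parentheses and exact 95% intervals as bars. The black square and dashed line give the share of all protein-coding genes, 6.77% for Foxp4 and 26.0% for H3K27ac, beside 80.6% of the members for constitutive 26S subunits for H3K27ac.

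The scores of the marked promoters lay around the middle of the list. The highest-scoring H3K27ac promoter peak of each gene had a median score of 50 over the 31 members (quartiles 39.5 and 65.5), beside 52 over all 5470 genes with such a peak (quartiles 39 and 74). Of the 31 genes 14 had a score at or above this median of 52 over all genes (45.2%), beside 51.7% of all. The median width was 661 bp, beside 676 bp. The widest promoter peaks were those of Psme4 (1330 bp), Psma7 (1318 bp), Psma6 (1236 bp) and Psmb2 (1225 bp), with scores of 50, 54, 48 and 34.

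**Figure D3:**
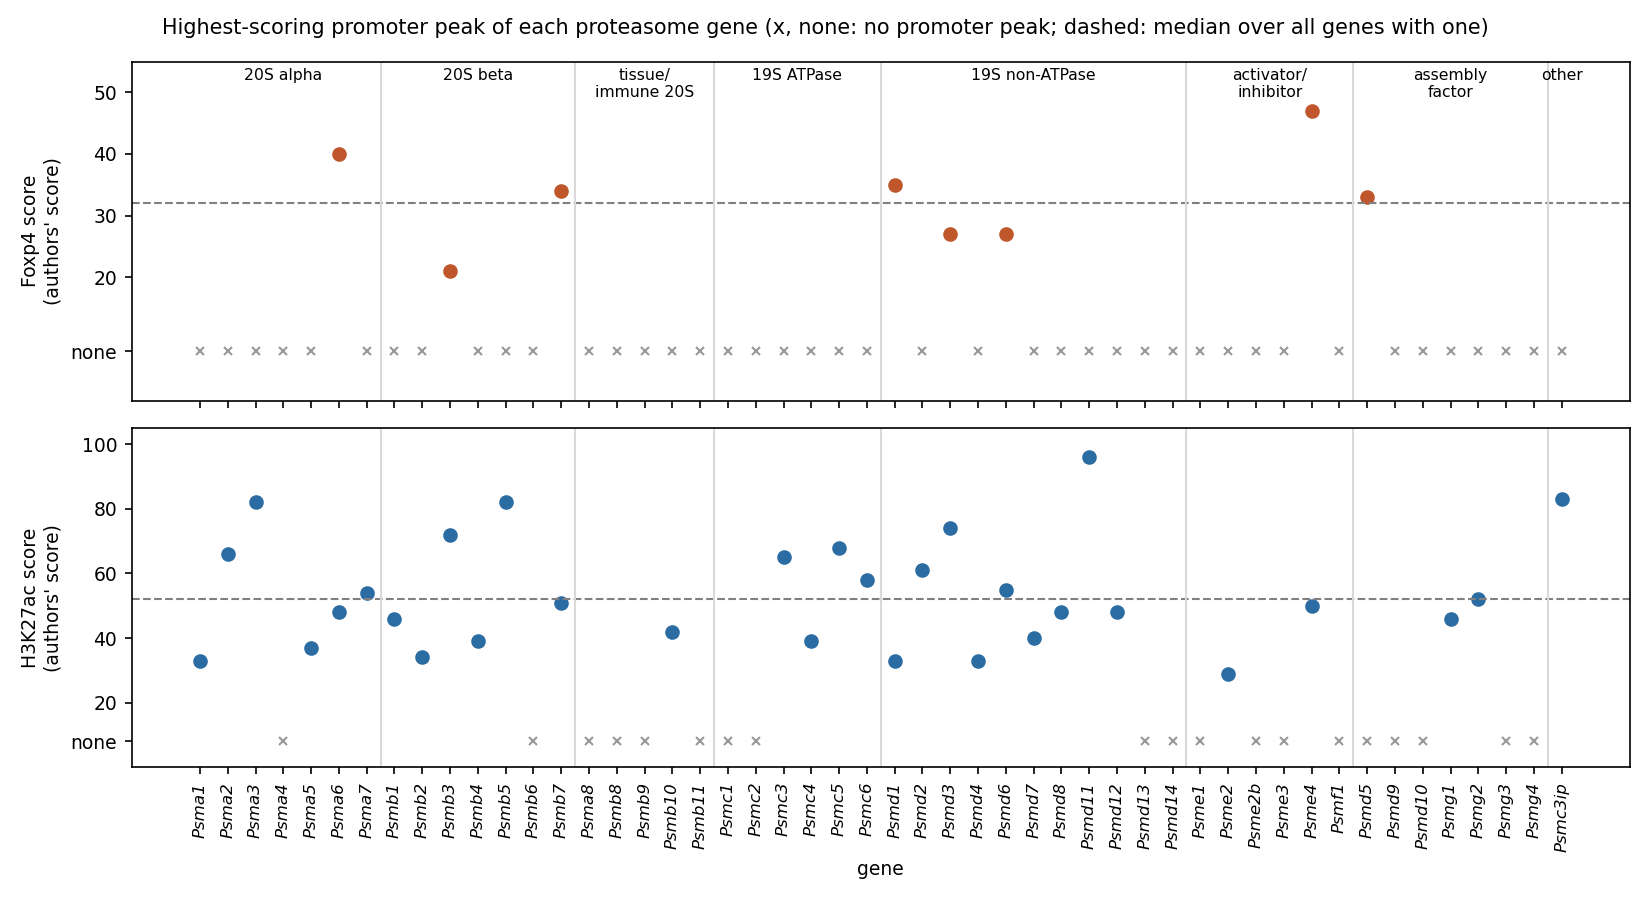
Authors' score of the highest-scoring Foxp4 (top) and H3K27ac (bottom) promoter peak of each of the 50 genes, grouped by part of the proteasome, where crosses mark genes without a promoter peak and the dashed lines the median over all genes with one. H3K27ac scores run from 29 at Psme2 to 96 at Psmd11 around a median of 52 for all genes, and 8 genes have a Foxp4 score.

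The acetylated peaks lay mostly downstream of the start. Their centre was downstream at 26 of 31 genes (83.9%), beside 74.3% of all genes, with a median position of 258 bp, beside 271 bp. At 14 of the 31 genes (45.2%) the peak covered the start, beside 43.2%. Of the 8 Foxp4 promoter peaks 5 covered the start (62.5%, interval 24.5 to 91.5%), beside 37.0% of all genes with a Foxp4 promoter peak, which the interval includes. Among the 5 is Psmd6, whose peak began at -1 bp from the deposited start but at 40 bp from the RefSeq start.

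Among the 31 genes with an acetylated promoter 7 also had a Foxp4 promoter peak (22.6%, interval 9.59 to 41.1%), beside 14.2% of all genes with an acetylated promoter, and among the 19 others 1 had one (5.26%, interval 0.133 to 26.0%), beside 4.14%. Both intervals include the share of all genes. Over all 50 genes, 7 had both promoter peaks (14.0%, interval 5.82 to 26.7%), beside 3.70% of protein-coding genes.

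Of the 45 member H3K27ac peaks, 71.1% lay in the promoter window (interval 55.7 to 83.6%), beside 36.5% of all H3K27ac peaks. H3K27ac peaks away from promoters numbered 13, at 10 genes, and 0 of them overlapped a Foxp4 peak (interval 0 to 24.7%), beside 6.29% of all such H3K27ac peaks. An H3K27ac peak at any distance was assigned to 34 genes (68.0%), beside 37.5% of all genes. Besides those of Psma1, Psmc1 and Psmc2, the highest-scoring were an intergenic peak 4782 bp upstream of Psmc6 (score 73) and one 6226 bp upstream of Psma3 (score 50). A peak of score 40 assigned to Psmd4 lay in an intron of Pip5k1a, 23.5 kb away.

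The promoters of 42 members are in the RefSeq promoter table, and 300 bp of each were searched on both strands for motifs of regulators known from proteasome or housekeeping genes and from forkhead factors. A match is a description of the letters, not a binding site. The ETS box (CCGGAAG) was present at 15 of 42 promoters (35.7%, interval 21.6 to 52.0%), beside 20.5% of 4453 genes with an H3K27ac promoter peak and 12.4% of all 16853 protein-coding genes in the table. Of the 42 members 24 had an H3K27ac promoter peak, and the box was at 10 of these (41.7%, interval 22.1 to 63.4%). Its carriers include Psma6, Psmd6 and Psme4 among the promoters printed above, and Psmc1, Psmc2, Psmd2 and Psmd11 among those without a Foxp4 promoter peak. Of the printed promoters, those of Psmd1 and Psmd5 hold none of the motifs.

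The box of the nuclear respiratory factor (GCGCA and GCGC, 1 base apart) was present at 7 of 42 promoters (16.7%, interval 6.97 to 31.4%), beside 12.1% of genes with an acetylated promoter and 6.85% of all genes. This box was at 5 of the 24 members with an acetylated promoter (20.8%, interval 7.13 to 42.2%). It was found at Psma2, Psma3, Psma4, Psmc4, Psmc5, Psmd14 and Psmg1. The CCAAT box was found at 14 promoters (33.3%), beside 35.0% and 39.0%, and at 7 of the 24 with acetylation (29.2%). The antioxidant response element that Nfe2l1 and related factors bind, spelled TGACNNNGC, was found at 6 promoters, those of Psmb5, Psmb6, Psmc6, Psmd9, Psmd12 and Psme4 (14.3%, interval 5.43 to 28.5%), beside 15.3% and 13.2%. The element was at 4 of the 24 with acetylation (16.7%, interval 4.74 to 37.4%). Its share was thus near that of other genes. The element of Psme4 lies on the minus strand across the start, in the last capitals of the printed sequence.

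The forkhead core was searched as TGTTTAC and as TGTTTGC, and 0 of 42 proteasome promoters held either form (interval 0 to 8.41% for each). The shares of all genes were 2.88% and 4.49%, and of genes with an acetylated promoter 2.22% and 3.39%. No match says that these letters are missing from these 300 bases, and nothing about Foxp4. The members' promoters had a median GC content of 59.0%, beside 63.3% for genes with an acetylated promoter and 57.0% for all genes. Matches to different motifs shared no base (0 pairs among 57 matches), and 12 of the 42 promoters held no motif.

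**Figure D4:**
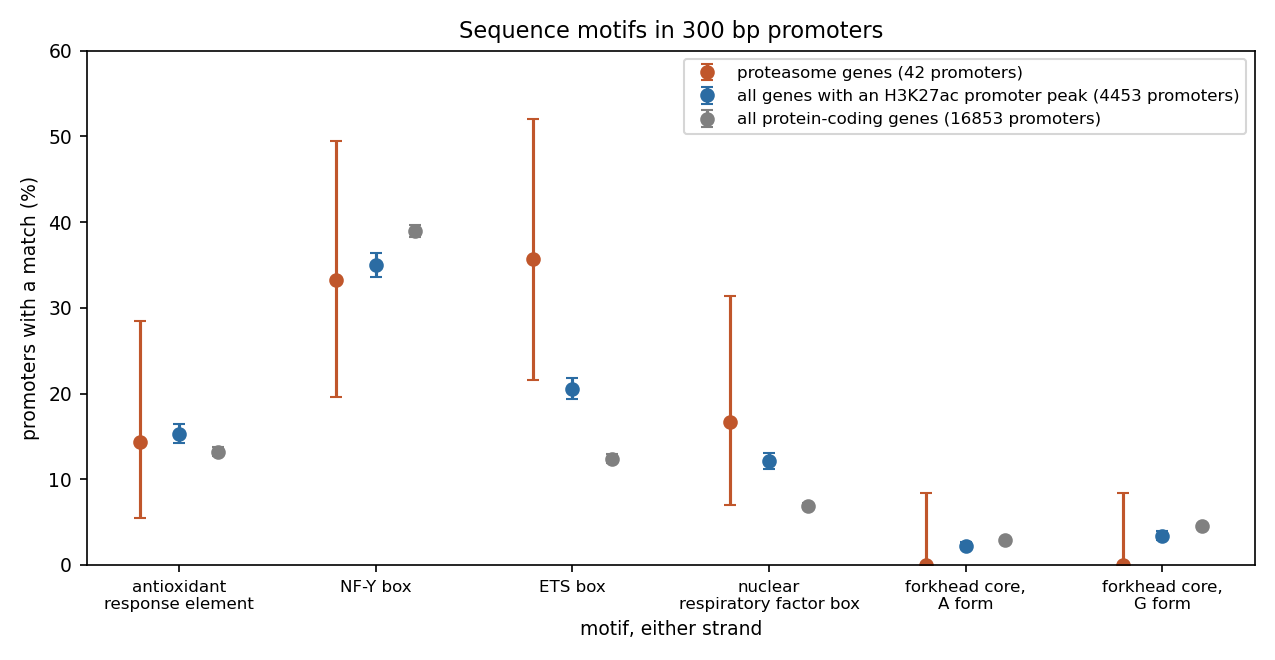
Share of promoters with each of 6 motifs, in % of promoters, for the 42 proteasome genes in the promoter table with exact 95% intervals, for genes with an H3K27ac promoter peak and for all genes. The 42 proteasome genes include those without an H3K27ac promoter peak. The ETS box is at 35.7% of proteasome promoters, beside 20.5% and 12.4%, and the forkhead forms are at 0.

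Other genes of the pathway were taken from a list of 36 factors without such a symbol that make, join, feed or regulate the proteasome. Of these 35 matched an annotated gene. Foxp4 promoter peaks were found at 4 of 35 (11.4%, interval 3.2 to 26.7%), beside 6.77% of all genes, which the interval includes. H3K27ac promoter peaks were found at 27 of 35 (77.1%, interval 59.9 to 89.6%), beside 26.0% of all genes, with a median H3K27ac score of 81, beside 52. Nfe2l1, the regulator of proteasome genes, had a Foxp4 peak of score 44 centred 901 bp upstream and an H3K27ac promoter peak of score 94, which did not overlap. Txnl1, a thioredoxin-like protein bound to the 19S particle, had a Foxp4 peak of score 41 and the ubiquitin ligase gene Ube3a one of score 46, and both overlapped an H3K27ac peak. Zfand2a, whose stress-induced product binds the 19S particle, had a Foxp4 peak of score 25 and no H3K27ac promoter peak. High H3K27ac promoter scores of the list were 121 at the ubiquitin receptor gene Adrm1, 111 at the proteasome adaptor gene Ecpas, 103 at Zfand5 and 102 at Ube3a. These 4 exceeded the 96 of Psmd11, and so did others of the list, such as Vcp with 98. Among the 8 genes of the list without an H3K27ac promoter peak were Uchl5 and Usp14, the deubiquitinases that join the 19S particle, and Ngly1, an enzyme that processes Nfe2l1.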

How the data were processed

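The series holds 3 libraries of mouse beige adipocytes, 1 each for Foxp4, H3K27ac and input, with 2 peak lists. The score is a value per peak as deposited by the authors, with its scaling not given in the sources used here. Peaks had been annotated with HOMER annotatePeaks.pl on mm10, per the file headers. Bowtie2, Picard, SAMtools, MACS2 and deepTools 3.3.0 are named, without settings, per the submitters' processing notes. No source used here states the peak threshold or the use of the input. Read depth is unknown.

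The members, lists and alternatives were chosen with earlier results of these data known. Each member gene is accounted for by name. Genes with a Foxp4 peak, the 8 highest and 4 lowest H3K27ac promoter peaks and genes without one were described in more detail. A promoter peak has its centre within 1000 bp of the deposited start. Shares were set beside those of all 21031 protein-coding genes of RefSeq (GRCm38.p6, same coordinates as mm10) on chromosomes 1 to 19, X and Y, with exact 95% intervals. Overlap means at least 1 bp. With 1 library per target, no test between conditions or against other genes was made. Promoter sequences come from the RefSeq table and were found for 42 of 50 genes. One gene of the pathway list is not reported here by name. The counting was tested on simulated data. Python 3.11.15, pandas 2.3.3, numpy 2.4.6, scipy 1.17.1 and matplotlib 3.10.9 were used.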

Additional observations from a re-analysis of the deposited data

How the results depend on the processing

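Of 27 values recomputed under other settings, 19 stayed within 1.5 times the reported value. With the deposited promoter class in place of the distance, 12 proteasome genes had an H3K27ac promoter peak (24.0%, beside 12.6% of all genes) and 5 a Foxp4 promoter peak (beside 4.47%). Peaks in the promoter window that the annotation classes as exon or intron are then not counted. The Foxp4 promoter count was also 5 with a window of 500 bp (beside 4.57%) and 5 in the higher-scoring 50% of the list (beside 4.41%), and it was 4 without recurrent scores (beside 3.87%). Genes with any Foxp4 peak numbered 11 in the higher-scoring 50% (22.0%, beside 23.2%) and 7 without recurrent scores (14.0%, beside 14.5%), and overlapping Foxp4 peaks numbered 2 without recurrent scores (20.0%, beside 19.2%). Fewer peaks enter under these settings. The H3K27ac promoter count otherwise lay between 22 (44.0%, beside 18.5% of all genes) and 34 (68.0%, beside 29.4%). The count of Foxp4 promoter genes by position, added after seeing the data, was 8 (16.0%, beside 7.99% of all genes). No paired analysis was possible because each target had 1 library. Depth and replicate spread are unknown, so a missing peak cannot be told apart from one below the threshold.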

Other observations

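Proteasome genes, with an H3K27ac promoter peak at 31 of 50 and a Foxp4 promoter peak at 8 of 50, were set beside other large housekeeping families. Cytosolic ribosomal protein genes had an H3K27ac promoter peak at 50 of 88 genes (56.8%, interval 45.8 to 67.3%) and a Foxp4 promoter peak at 6 (6.82%, interval 2.54 to 14.3%). Mitochondrial ribosomal protein genes had them at 31 of 78 (39.7%, interval 28.8 to 51.5%) and at 7 (8.97%, interval 3.68 to 17.6%). The shares over all genes were 26.0% for H3K27ac and 6.77% for Foxp4, so the Foxp4 shares of both ribosomal families were near the background. The differences between families were not tested.

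A gene on the opposite strand started within 1000 bp of 7 of 42 proteasome genes (16.7%), beside 13.5% of all genes in the promoter table. The pairs were Psma2 with Mrpl32 (205 bp), Psma7 with Ss18l1 (19 bp), Psmb9 with Tap1 (226 bp), Psmc5 with Ftsj3 (101 bp), Psmd10 with Atg4a (196 bp), Psmd13 with Sirt3 (85 bp) and Psme2 with Rnf31 (641 bp). At such promoters a nearest-start annotation gives a peak to one partner only. The H3K27ac peak between Psmd13 and Sirt3 was given to Sirt3, while those at Psma2, Psma7, Psmc5 and Psme2 were given to the proteasome gene.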
